A study of Mus musculus with 6 samples.

Results

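The expression of 10 receptor genes that sense nutrients, hormones and foreign compounds was followed in mouse liver during chronic alcohol feeding. The genes were Nr1i2 (PXR), Nr1i3 (CAR), Ppara, Pparg, Nr1h3 (LXRα), Nr1h4 (FXR), Nr0b2 (SHP), Rxra, Nr3c1 (the glucocorticoid receptor, GR) and Ahr. Every probe that the array design named after one of these genes was taken, which gave 14 of the 41174 probes on the array. Of the genes, 8 had 1 probe, Rxra had 2 and Nr3c1 had 4. Male 129/Sv mice, 6 to 8 weeks old at the start, received a liquid diet with 4% ethanol, and the control mice an isocaloric diet with maltose dextran in place of the alcohol. At 1, 2 and 4 months the liver RNA of 6 alcohol-fed mice was combined into a pool, as was that of 6 control mice, and both pools of a month were compared on 2 two-color arrays with exchanged dyes. Each month thus contributed 1 pair of pools, measured on 2 arrays, and the spread between mice was not measured. The 1-month arrays lay together on a slide of their own and those of the later months on another, so that a difference of the 1-month ratios from later ones and a difference of slides cannot be told apart.

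Most of these proteins are ligand-activated transcription factors. PXR and CAR sense drugs and other foreign compounds and induce P450 enzymes, PPARα directs fatty acid oxidation, PPARγ lipid storage, LXRα the response to oxysterols and FXR the response to bile acids, all as dimers with RXRα. SHP is a repressor without a DNA-binding domain that FXR induces, GR answers to corticosterone, and Ahr, which belongs to another protein family, senses dioxin-like compounds together with Arnt.

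The transcript level of the receptors in the alcohol pools lay within 1.5-fold of that in the control pools, as it did for most probes on the array. The averaged alcohol over control ratio reached 1.5-fold for 0 of the 14 probes at 1, 2 or 4 months, against 1.22%, 2.66% and 3.73% of the 37922 probes tested. Over the 42 monthly values the log2 ratio ranged from -0.47 (Ppara at 4 months) to 0.42 (Nr0b2 at 2 months). The number of receptor probes with the same direction on all 6 arrays was 0, a pattern found for 4.14% of all probes tested. The median log2 ratio of the receptor probes was 0.10, 0.03 and -0.03 at 1, 2 and 4 months, beside 0.005, 0.007 and -0.010 for all probes tested. With 1 probe per gene it was 0.06, 0.11 and 0.03, so the sign at 4 months depended on how the probes of Nr3c1 and Rxra were counted. The median size of the log2 ratio, whatever its sign, was 0.12, 0.14 and 0.09 for the receptor probes and 0.10, 0.11 and 0.11 for all probes tested, so the receptors lay no closer to control than a typical probe at 1 and 2 months. With 14 probes, the shares of all probes given here correspond to less than 1 probe, so the counts of 0 do not set the receptors apart. Several lists of genes that the receptors are known to control lay further from control, as described beside each receptor. These lists were written with earlier results of these data known, so that contrast is a description and no independent test. In pooled tissue RNA, fewer cells of a type and less RNA per cell cannot be told apart.

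All 14 probes were well above background in both channels of all 6 arrays and 0 were saturated, so each ratio was measured on both sides. The hepatocyte markers tested (Ttr, Apoa1, Hnf4a, Tat and Cps1) were also well above background on every array. Markers of other cells differed between some pools. The summed level of 6 blood markers, on the log2 scale relative to the 75th percentile of the channel, was 6.51 in the alcohol pool and 4.97 in the control pool at 1 month. Emr1 (1.23) and Cdh5 (0.59), markers of macrophages and endothelium, were at least 1.5-fold above control at 1 month, and the macrophage marker Marco (0.61) at 2 months, each alone among the 6 macrophage or 4 endothelial genes tested. The median log2 ratio of the endothelial genes was 0.36, 0.01 and 0.05 at 1, 2 and 4 months. That of the macrophage genes was 0.25, -0.04 and 0.05, beside 0.005 for all probes tested at 1 month. Acinar pancreas markers were at least 1.5-fold above control for 5 of 10 genes at 4 months, with summed levels of 4.61 and 4.25 in the alcohol and control pools. Over the months the summed acinar level ranged from 4.04 to 4.61 in the alcohol pools and from 4.12 to 4.25 in the control pools, and 8 of the 10 acinar probes were well above background throughout. The part of these cells in the results below was not tested.

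Many nuclear receptors bind DNA through the hexamer AGGTCA, and RXRα dimers bind pairs of it. The RefSeq table of sequences upstream of transcription starts (mouse assembly GRCm38.p6) held 12 windows of 250 bases for 8 of the 10 genes. The hexamer, searched on both strands, occurred in 14% of 32851 windows of this length and in 4 of the 12 receptor windows. Those 4 are printed to show where the receptor genes themselves carry the letters that the receptor family binds, with AGGTCA, or TGACCT where it lies on the other strand, in capitals.
Rxra, downstream start, chr2:27709042-27709291, plus strand: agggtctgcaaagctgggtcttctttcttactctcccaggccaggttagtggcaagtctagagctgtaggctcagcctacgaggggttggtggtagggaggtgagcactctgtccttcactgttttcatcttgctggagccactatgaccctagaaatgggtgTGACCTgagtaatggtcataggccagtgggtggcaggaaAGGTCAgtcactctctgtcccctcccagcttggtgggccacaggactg
Pparg, first start, chr6:115360894-115361143, plus strand: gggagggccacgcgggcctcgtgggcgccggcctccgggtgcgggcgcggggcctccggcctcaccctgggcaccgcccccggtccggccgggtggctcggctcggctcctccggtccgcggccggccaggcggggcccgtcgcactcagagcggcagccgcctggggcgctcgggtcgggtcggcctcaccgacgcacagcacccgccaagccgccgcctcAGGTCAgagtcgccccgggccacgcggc
Pparg, middle start, chr6:115362099-115362348, plus strand: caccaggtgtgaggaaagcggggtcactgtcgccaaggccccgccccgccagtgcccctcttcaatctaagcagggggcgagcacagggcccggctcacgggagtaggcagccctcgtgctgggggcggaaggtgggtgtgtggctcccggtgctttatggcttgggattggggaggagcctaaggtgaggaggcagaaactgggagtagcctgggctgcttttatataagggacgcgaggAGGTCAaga
Nr1h4, chr10:89506659-89506908, minus strand: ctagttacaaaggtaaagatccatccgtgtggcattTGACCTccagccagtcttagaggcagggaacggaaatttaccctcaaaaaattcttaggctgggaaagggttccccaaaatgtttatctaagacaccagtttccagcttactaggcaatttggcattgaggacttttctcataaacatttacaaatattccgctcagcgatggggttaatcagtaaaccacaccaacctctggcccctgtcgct
Relative to the start site, the hexamer began at positions -87 and -48 in the Rxra window, at -28 and -9 in the Pparg windows and at -214 in the Nr1h4 window. The Nr1h4 window belongs to a start inside the gene, whose annotated span is 89454234 to 89533645. A pair of hexamers, as a direct repeat spaced by 1 base (AGGTCANAGGTCA) or 4 bases (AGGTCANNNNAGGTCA) or as an inverted repeat spaced by 1 base (AGGTCANTGACCT), was found in 0 of the 12 windows and in 0.0335%, 0.0152% and 0.00609% of all windows. The letters describe the sequence and are no measurement of binding.

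**Figure D1:**
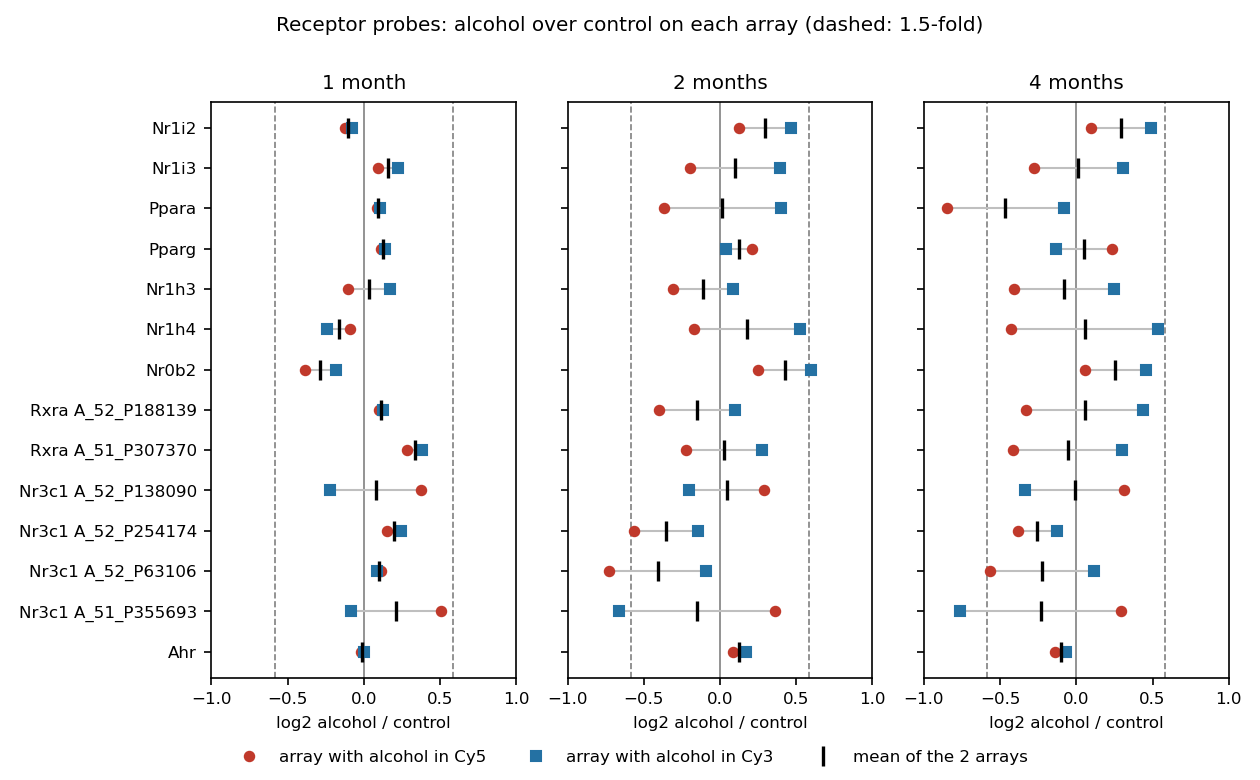
Log2 alcohol over control ratio of the 14 receptor probes at 1, 2 and 4 months. Circles are the arrays with alcohol in Cy5, squares those with alcohol in Cy3, ticks the mean of the 2 arrays and dashed lines 1.5-fold. All ticks lie between -0.47 and 0.42, and for most probes the arrays of a pair are further apart at 2 and 4 months than at 1 month.

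The xenobiotic receptors PXR and CAR stayed within 1.5-fold of control. With alcohol in Cy5 and in Cy3, the log2 ratio of Nr1i2 was -0.12 and -0.08 after 1 month, 0.12 and 0.47 after 2 months, and 0.10 and 0.49 after 4 months. Nr1i2 was thus slightly below control on both 1-month arrays and above it on all 4 later arrays, with averaged folds of 0.932, 1.23 and 1.23. Over the months its mean was 0.16 (SE 0.10, n = 3 months, limma adjusted p = 0.717). For Nr1i3 the values were 0.10 and 0.23, then -0.20 and 0.39, then -0.28 and 0.30. The arrays of Nr1i3 shared a direction at 1 month only, and the averaged ratio was 0.16, 0.10 and 0.01. Its mean was 0.09 (SE 0.06, n = 3 months, limma adjusted p = 0.742).

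Of the genes that CAR and PXR are known to induce, a part lay above control on the same arrays and others did not. At 1, 2 and 4 months, 17, 17 and 21 of the 42 genes tested were at least 1.5-fold above control and 0 were below, where 0.588%, 1.17% and 2.24% of all probes tested were above and 0.63%, 1.49% and 1.48% below. The list median was 0.45, 0.32 and 0.61, and 20 of the 42 genes were above control on all 6 arrays. Cyp2b10, the customary reporter of CAR, had log2 ratios of 3.27, 2.77 and 4.03 (limma adjusted p = 0.248). Its close relative Cyp2b13, whose probe may share signal with it, had 3.40, 2.88 and 2.36. Cyp3a11, the customary reporter of PXR, had 0.94, 1.29 and 2.40 (limma adjusted p = 0.616). Its relatives Cyp3a16 (0.84, 1.31 and 2.44) and Cyp3a44 (0.84, 1.22 and 2.28) had close values, while Cyp3a25 (-0.19, -0.36 and 0.02) did not. The list holds several such relatives of the Cyp2b, Cyp2c and Cyp3a families. Their probes may share signal, so its counts may not be counts of separate genes. An unadjusted p under 0.05 was reached by 27 of the 42 genes and by 7.94% of all probes (3012), and by 0 of the 14 receptor probes. After adjustment limma called 0 of the 37922 probes, so that none of the changes named here passed that test.

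Ppara had the lowest monthly value of the receptors. Its probe was printed as 10 spots on each array, and the mean of the spots with alcohol in Cy5 and in Cy3 was 0.08 and 0.11 after 1 month, -0.37 and 0.40 after 2 months, and -0.85 and -0.08 after 4 months. Both arrays were below control at 4 months, with an averaged fold of 0.724, but the 2 arrays of that month differed from each other by more than their mean differed from 0. The 10 spots of an array scattered little, with an SD of 0.03 to 0.12, so the gap between the arrays of a pair at the later months was larger than the scatter of spots. The mean over the months was -0.12 (SE 0.13, n = 3 months, limma adjusted p = 0.831). The fitted slope was -0.28 per doubling of the month (SE 0.10), for which the unadjusted p was 0.046 and the limma adjusted p 0.696. Ppara was the 1 receptor probe of 14 with an unadjusted trend p under 0.05, a share near the 7.12% of all probes.

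**Figure D2:**
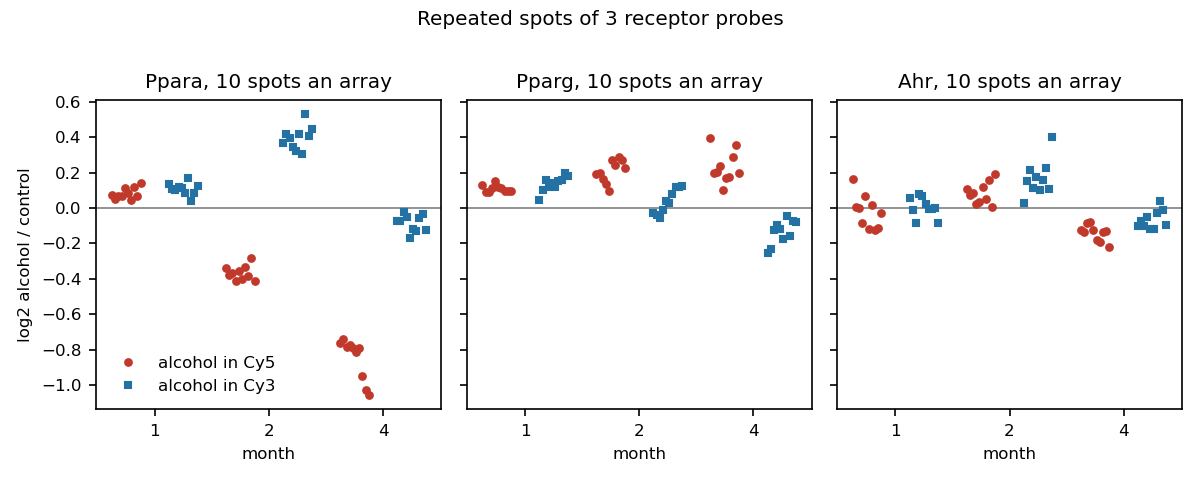
Log2 alcohol over control ratio of each of the 10 spots of the Ppara, Pparg and Ahr probes on the 6 arrays, by month. Circles are arrays with alcohol in Cy5 and squares those with alcohol in Cy3. The spots of 1 array lie together, with an SD of at most 0.12, while for Ppara the arrays of a month lie apart at 2 and 4 months.

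Genes activated by PPARα were above control more often than below. Of 42 genes tested, 9, 8 and 7 were at least 1.5-fold above control at 1, 2 and 4 months and 0 were below, with medians of 0.22, 0.11 and 0.13, and 12 were above control on all 6 arrays. The shares of all probes at least 1.5-fold above were 0.588%, 1.17% and 2.24%, and 1.72% were above on all 6 arrays. Cyp4a14, a fatty acid hydroxylase, had log2 ratios of 2.44, 1.81 and 1.16, and the related Cyp4a10 1.11, 0.67 and 0.68 (limma adjusted p = 0.613 for each). Abcd2, a peroxisomal fatty acid transporter, had 1.40, 0.89 and 1.70. Pdk4, a kinase that restrains glucose oxidation, had 0.89, 0.86 and 0.84 (SE 0.06, limma adjusted p = 0.238), although its probe was well above background on only 5 arrays in the alcohol channel and 4 in the control channel. Other genes of the list were below 0 at 4 months, among them Adfp (-0.49), Fabp2 (-0.50), Cpt1a (-0.24) and Acsl1 (-0.18), and the 2 arrays of Adfp, Cpt1a and Acsl1 had opposite signs. Adfp, Fabp2, Cpt1a and Acsl1 were chosen after their values were seen.

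Pparg was above control on 5 of the 6 arrays, with small values. Its log2 ratio was 0.11 and 0.14 after 1 month, 0.21 and 0.04 after 2 months, and 0.23 and -0.14 after 4 months. The mean was 0.10 (SE 0.06, n = 3 months, limma adjusted p = 0.709), which corresponds to 1.07-fold. Among 11 PPARγ target genes, 2 were at least 1.5-fold above control at 1 month and 0 at the later months. These were Cd36, a fatty acid transporter, at 2.56-fold after 1 month and log2 ratios of 0.25 and 0.34 later, and G0s2, an inhibitor of lipolysis, with log2 ratios of 0.64, 0.13 and -0.04. Below 1.5-fold, the lipid droplet protein gene S3-12 had log2 ratios of 0.36, 0.50 and 0.35 and the acyltransferase gene Mogat1 0.15, 0.06 and 0.10, each above control on all 6 arrays.

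The sterol and bile acid receptors did not hold one direction. For Nr1h3, the values were -0.10 and 0.17, then -0.31 and 0.08, then -0.41 and 0.25, so that the array with alcohol in Cy5 was below control and its partner above it at each month. For Nr1h4, they were -0.09 and -0.24 after 1 month, -0.17 and 0.53 after 2 months, then -0.43 and 0.54. Both FXR arrays were below control at 1 month, and at the later months the arrays disagreed. The means over the months were -0.05 for Nr1h3 (limma adjusted p = 0.856) and 0.02 for Nr1h4 (limma adjusted p = 0.961).

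Nr0b2 had the highest monthly value of the receptors and the largest spread over the months (SD 0.37, n = 3 months). Its log2 ratio was -0.39 and -0.18 after 1 month, 0.25 and 0.60 after 2 months, and 0.06 and 0.46 after 4 months. Both arrays were below control at 1 month and all 4 later arrays above it, with averaged folds of 0.820, 1.34 and 1.19. The mean was 0.13 (SE 0.15, n = 3 months, limma adjusted p = 0.842), and the slope of 0.27 per doubling of the month had a limma adjusted p of 0.808. Relative to the 75th percentile, the control pools had a log2 level of 1.16, 0.13 and 0.52 and the alcohol pools of 0.87, 0.54 and 0.77. The control pools of 1 and 2 months, which were on different slides, differed by -1.03 on this scale and by -0.50 when each channel was scaled by its median.

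Averaged over the 2 arrays of a month, targets of these receptors had medians slightly below 0, with single genes on either side of control. With alcohol in Cy3, the FXR and SHP median was 0.10 at 2 months and 0.06 at 4 months. The LXR median was 0.07 at 4 months in that orientation. Of 14 LXR targets, 1 was at least 1.5-fold above and 1 below control after 1 month, 0 and 3 after 2 months, and 0 and 0 after 4 months, with medians of -0.11, -0.13 and -0.02. Of 18 genes controlled by FXR and SHP, 1 was above and 1 below after 1 month, 0 and 0 after 2 months, and 0 and 2 after 4 months, with medians of -0.11, -0.04 and -0.10. This list mixes genes that FXR induces with genes that SHP represses, so its counts and median give no direction of receptor activity. Those below were Slco1a1 at 1 month (-1.75), and Slco1a1 (-1.11) and Cyp8b1 (-1.10) at 4 months. The shares of all probes below were 0.63%, 1.49% and 1.48%. These lists overlap with the receptors, as the LXR list holds Nr1h3 itself and the FXR and SHP list Nr0b2 itself. Cyp7a1 is in both lists and is the gene above control after 1 month in each. Lpl is in the LXR list and also in the PPARγ list. Apoc2, an apolipoprotein gene that FXR induces, was below control on all 6 arrays (-0.36, -0.32 and -0.27, limma adjusted p = 0.616). Cyp7a1, the rate-limiting enzyme of bile acid synthesis, which SHP represses, had 0.59, 0.04 and -0.24. Both 1-month arrays of Cyp7a1 (0.78 and 0.41) were above control, the 2-month arrays had opposite signs (-0.05 and 0.13), and both 4-month arrays (-0.25 and -0.23) were below control.

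**Figure D3:**
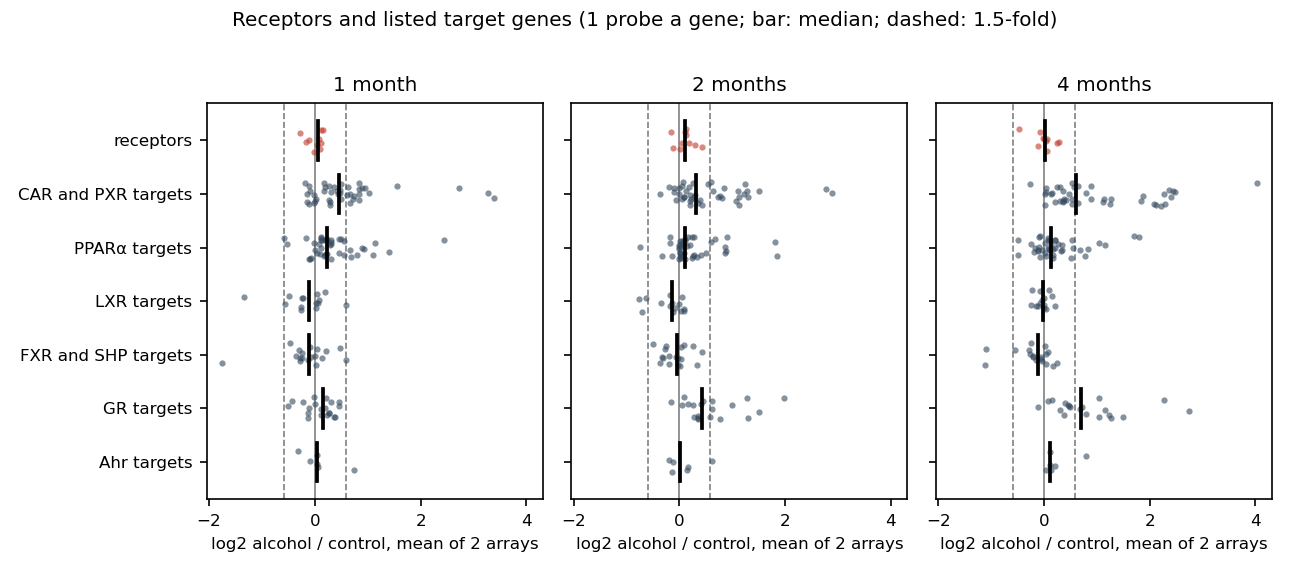
Log2 alcohol over control ratio, averaged over the 2 arrays of a month, of the 10 receptors (red, 1 probe a gene) and of 6 lists of target genes (dark points). Bars are medians and dashed lines 1.5-fold. The lists were written with earlier results of these data known. No receptor lies beyond the dashed lines, while 17, 17 and 21 of the 42 CAR and PXR targets lie above them with both arrays above 0 at 1, 2 and 4 months, as do 0, 9 and 11 of the 20 GR targets.

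Rxra, the common dimer partner, gave no common direction. The first probe (A_52_P188139) had 0.10 and 0.13, then -0.40 and 0.09, then -0.33 and 0.44, and the second (A_51_P307370) 0.29 and 0.38, then -0.22 and 0.27, then -0.41 and 0.30. Both probes were above control on both arrays at 1 month, with averaged folds of 1.08 and 1.26, and the arrays of each later month pointed in opposite directions. Their means were 0.00 and 0.10 (limma adjusted p = 0.992 and 0.806). Among 13 other partners and chaperones, the 1 gene above control on all 6 arrays was Fkbp5, which is described with GR. The heat shock protein gene Hsp90aa1 varied in direction over the months (0.23, -0.62 and 0.36), as did the co-chaperone gene Fkbp4 (0.15, -0.58 and -0.16). These 2 genes were chosen after their values were seen.

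The 4 probes of Nr3c1 did not give one answer. Probe A_52_P254174 was above control on both 1-month arrays (0.15 and 0.24) and below it on both 2-month arrays (-0.57 and -0.15) and both 4-month arrays (-0.39 and -0.13). Probe A_52_P63106 had 0.11 and 0.08, then -0.73 and -0.09, then -0.57 and 0.11. These 2 probes had the lowest ratios at 2 months, with averaged folds of 0.781 and 0.753, and their means were -0.14 and -0.18 (limma adjusted p = 0.792 and 0.713). Probe A_51_P355693 had 0.51 and -0.08, 0.36 and -0.67, and 0.30 and -0.76, and probe A_52_P138090 had 0.37 and -0.22, 0.29 and -0.20, and 0.32 and -0.33. On these other 2 probes the ratio was positive with alcohol in Cy5 and negative with alcohol in Cy3 at every month, so the sign followed the label. Their means were -0.06 and 0.04 (limma adjusted p = 0.906 and 0.894). The array design assigns A_52_P138090 to a cDNA that is not among the RefSeq transcripts of the gene, and the part of the gene that each probe reads was not determined here.

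GR targets were further from control at the later months. At 1, 2 and 4 months 0, 9 and 11 of 20 genes were at least 1.5-fold above control and 0 were below, with medians of 0.16, 0.43 and 0.71, and 6 genes were above control on all 6 arrays. The share of all probes at least 1.5-fold above also grew, from 0.588% to 1.17% and 2.24%, and 1.72% were above on all 6 arrays. Fkbp5, a co-chaperone that GR induces and that in turn restrains GR, had 0.38, 0.59 and 0.80 (SE 0.10, limma adjusted p = 0.613), with the 6 arrays between 0.36 and 0.95. Ddit4, a stress-responsive inhibitor of mTOR signaling, had 0.23, 1.00 and 1.15, Lcn2, an acute-phase gene, 0.36, 1.28 and 1.04, and Tat, tyrosine aminotransferase, 0.27, 0.61 and 0.69. The 4-month arrays of Tat were far apart, with 1.34 for alcohol in Cy5 and 0.03 for alcohol in Cy3. Many genes of this list also respond to fasting or inflammation. The list was written with earlier results of these data known. It holds Igfbp1 and Gadd45b, which the paper reports as induced on these arrays, so its counts are no independent evidence. Gadd45b is also in the CAR and PXR list, and Pck1 is also in the PPARγ list.

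Ahr had the narrowest range over the arrays of the 10 receptors. Its 10-spot means were -0.02 and 0.00 after 1 month, 0.09 and 0.17 after 2 months, and -0.14 and -0.06 after 4 months, a range over the arrays from -0.14 to 0.17. The mean over the months was 0.01 (SE 0.07, n = 3 months, limma adjusted p = 0.990). Of 6 Ahr targets tested, 1 was at least 1.5-fold above control in each month, Nqo1, a quinone reductase that is also induced through other factors. Nqo1 had log2 ratios of 0.74, 0.61 and 0.79 (SE 0.07, limma adjusted p = 0.446), and its probe was not well above background on 1 array in each channel. Cyp1a2, a P450 of liver that Ahr induces, had 0.06, -0.14 and 0.05, with opposite signs on the arrays of a pair at each month.

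Among the other nuclear receptors on the array, 37 genes were tested, and 0 were at least 1.5-fold from control at 1 and 2 months and 1 at 4 months, a share no larger than the 3.73% of all probes at that month. That gene was Nr1d1 (REV-ERBα), a repressor of the circadian clock, with -0.09, -0.44 and -0.62 (limma adjusted p = 0.616). Its paralog Nr1d2 had -0.15, -0.44 and -0.32, and Nr5a2 (LRH-1), a bile acid regulator that SHP antagonizes, -0.04, -0.39 and -0.25. These were the 3 genes of the list below control on all 6 arrays, against 2.42% of all probes tested (and 1.72% above control on all 6). The medians of 17 coactivators and corepressors were -0.01, 0.04 and 0.03, and Lpin1, a lipin that also works with PPARα, was the 1 gene of that list at least 1.5-fold from control, below it at 1 month (-1.07) and above it at 2 months (1.48). Nr5a2 and Lpin1 were chosen after their values were seen.

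The direction of a receptor's ratio often went with the label. The dye part of a month, which is 0.5 times the difference between its 2 arrays, had the same sign at all 3 months for 11 of the 14 receptor probes, beside 56.8% of all probes. Its median size on the receptor probes was 0.05, 0.25 and 0.33 at 1, 2 and 4 months, against 0.10, 0.19 and 0.22 for all probes. Both arrays of a month had one direction for 10, 6 and 5 of the 14 receptor probes, where 50.6%, 37.2% and 33.3% of all probes did. The median size of the averaged ratio was larger than that of the dye part at 1 month and smaller at 2 and 4 months for the receptor probes, and for all probes it was about the same at 1 month and smaller at 2 and 4 months. Both arrays of 1 month lay above control and both of another below it for 4, 4 and 1 of the 14 receptor probes (1 against 2, 1 against 4 and 2 against 4 months), where 10.9%, 8.82% and 5.58% of all probes did. Averaging over the exchanged dyes removes a label effect that is equal on both arrays.

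The intervals of the mean ratios show how large a sustained change these 3 months leave room for. With the 3 months as replicates, the 95% limma interval of the mean fold included 1 for 14 of the 14 receptor probes, and for 92.1% of all probes. It reached down to 0.720 for Nr3c1 (A_52_P63106) and up to 1.44 for Nr0b2, and lay inside 1.5-fold in both directions for 14 of 14 receptor probes and for 91.7% of all probes tested. For Nr1i2 the interval was 0.928 to 1.35, for Nr1i3 0.948 to 1.20 and for Ppara 0.731 to 1.16. They do not bear on smaller changes, on single months or on the spread between mice.

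**Figure D4:**
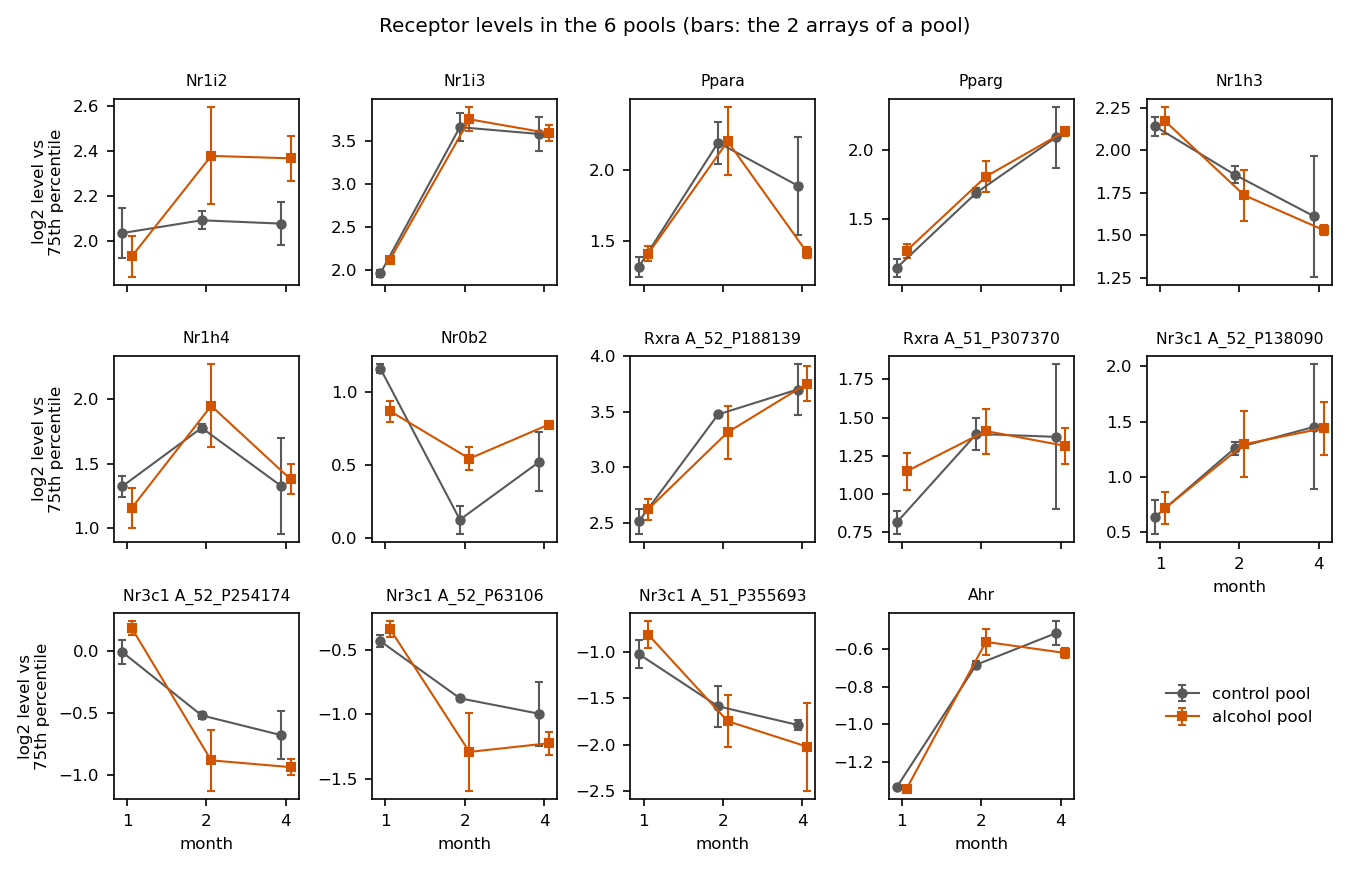
Log2 level of each receptor probe relative to the 75th percentile of its channel in the control pools (gray circles) and alcohol pools (orange squares) at 1, 2 and 4 months. Points are means and bars span the 2 arrays of a pool, months are spaced evenly, and each panel has its own scale. Nr1i3 is higher at 2 and 4 months than at 1 month in both pools, and the 1-month arrays were on a different slide.

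The level of several receptors differed more between months than between diets. Nr1i3 had a log2 level of 1.96, 3.66 and 3.58 in the control pools and of 2.12, 3.75 and 3.59 in the alcohol pools at 1, 2 and 4 months. Its level was 1.70 higher at 2 months than at 1 month in the control pools and 1.63 higher in the alcohol pools. Of 27900 probes, 9.57% and 9.70% were more than 1 higher, and 22.2% were more than 1 lower in either pool. Pparg had 1.15, 1.69 and 2.09 in the control pools and 1.27, 1.81 and 2.14 in the alcohol pools. Ahr had -1.33, -0.68 and -0.52 beside -1.34, -0.56 and -0.62. These 3 receptors were higher at both later months than at 1 month in either pool, also when each channel was scaled by its median, or by loess and Aquantile normalization together. The difference of Nr1i3 between 2 months and 1 month in the control pools was then 2.23 and 1.32, that of Pparg 1.07 and 0.24 and that of Ahr 1.18 and 0.97. No direction held for Nr1h3, whose level at 2 months differed from that at 1 month by -0.28 in the control pools with the 75th percentile, by 0.25 with the channel median and by -0.62 with loess and Aquantile. The slide changed between these months, and their parts cannot be told apart.

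Between 2 and 4 months, which shared a slide, all receptor levels differed by less than 1 on the log2 scale in either pool. Nr1i3 differed by -0.08 in the control pools and by -0.16 in the alcohol pools, and 0.806% and 1.06% of probes were more than 1 higher and 1.73% and 1.95% more than 1 lower at 4 months than at 2 months. Ppara had levels of 2.19 and 1.89 in the control pools and of 2.20 and 1.42 in the alcohol pools. Its level thus differed by -0.30 between the control pools and by -0.78 between the alcohol pools, with values of -0.29 and -0.77 under the channel median. Each of these is a difference between single pools, and no test of it was possible.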

How the data were processed

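Liver RNA pools of 6 alcohol-fed and 6 control mice were compared at 1, 2 and 4 months on dye-swapped Agilent arrays. The authors deposited Feature Extraction 9.1.1.1 output (version per the file headers), which holds the signal intensity of each channel, raw and after background subtraction and dye normalization, and a log10 ratio of the Cy5 to the Cy3 channel. The deposited error of the log10 ratio, another measure, weighted an alternative, and the deposited flags marked dim and saturated spots. A deposited value table held log10 ratios turned to alcohol over control, with a median of 0 on each array. For the 40929 probes with 1 spot, these were the same ratios to within 0.016 on the log2 scale. Probes with 10 spots, among them those of Ppara, Pparg and Ahr, were not compared in this way.

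Processed intensities were turned to log2 alcohol over control by the labeled dyes, averaged over the spots of a probe and over the 2 arrays of a month, which count as 1 replicate. A monthly ratio was called without a test, at 1.5-fold with both arrays in one direction. The 3 monthly ratios were tested against 0, and as a slope on the log2 month, with limma 3.58.1 in R 4.3.3 over the 37922 probes that were well above background at least once, with Benjamini-Hochberg adjustment at 0.05. The code was tested on simulated data. Levels are log2 intensities minus the 75th percentile of the channel. For a list, the probe of a gene with the highest mean signal was used. Genes named by rule are all receptor probes, the 2 highest and 2 lowest genes of each list among those with one direction on all 6 arrays, and 7 usual targets. Other genes named with their values, such as Cd36 and G0s2, were chosen after those values were seen, some because they passed 1.5-fold. The receptors and lists were chosen with earlier results of these data known. The number of arrays limits the precision, and intervals cover neither mice nor slides. Alternatives covered background correction, scaling, dye orientation, filters, months left out and averaging over probes. Python 3.11.15 was used for other steps.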

Additional observations from a re-analysis of the deposited data

Results flagged for a closer look

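For 5 receptors both arrays of one month lay above control and both arrays of another month below it, and each such difference between months was not tested on its own. Nr1i2 was 0.40 higher on the log2 scale at 2 months than at 1 month, and 0.40 higher at 4 months than at 1 month. Nr0b2 was 0.71 higher at 2 months and 0.54 higher at 4 months than at 1 month. The Nr3c1 probe A_52_P254174 differed from its 1-month ratio by -0.55 at 2 months and -0.45 at 4 months, and the probe A_52_P63106 by -0.51 at 2 months. Ppara differed by -0.56 between 4 months and 1 month, and Ahr by -0.23 between 4 months and 2 months. Opposite months of this kind were found for 4, 4 and 1 of the 14 receptor probes (1 against 2, 1 against 4 and 2 against 4 months) and for 10.9%, 8.82% and 5.58% of all probes tested. In all but the Ahr pair, the months compared lay on different slides.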

How the results depend on the processing

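With 1 pair of pools a month, a p-value measures the spread between months, and single months have no replicate. No receptor passed the adjusted threshold in any fit, with a lowest adjusted p of 0.149 for the effect and 0.368 for the trend. For 8 of the 10 genes the result rests on 1 probe, and slide and month are joined. The random slide block was not run, because the correlation could not be estimated from 3 values. A fixed slide block on the pools, chosen after seeing the data, called 0 probes. The monthly ratios already pair the pools of a month on the same arrays, and a fit of the 3 against 3 pools with no replicate block, which drops that pairing, gave 0 calls (51 at an unadjusted p under 0.05, against 3012). That limma count was 9400 with alcohol in Cy5 only and 7142 with alcohol in Cy3 only. It was 4480, 1924 and 1883 without month 1, 2 and 4.

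With normexp and loess, limma called 9 probes for the effect and 50 for the trend, and with probes well above background in both channels of all arrays 6 for the effect. Receptor probes were not among those calls. With alcohol in Cy5 only, 1 receptor probe reached 1.5-fold at 2 months (Nr3c1 A_52_P63106) and 1 at 4 months (Ppara). Of the 37922 probes tested, 3929 and 4143 did so at these months. With alcohol in Cy3 only, 2 receptor probes did so at 2 months (Nr0b2 and Nr3c1 A_51_P355693) and 1 at 4 months (Nr3c1 A_51_P355693). Here 4178 and 6874 of the 37922 probes tested reached 1.5-fold, so these counts do not set the receptors apart. All other settings tried gave 0 receptor probes at 1.5-fold. For all probes tested, normexp and loess gave 203, 317 and 675 at 1, 2 and 4 months, against 462, 1008 and 1414. Receptor levels depended on the scaling, as 94 of 168 differences between months moved by more than the spread between arrays.

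Among receptor means over the months, 19 of 196 values under an alternative had the opposite sign. With alcohol in Cy5 only these were Nr1i3 (-0.13), Nr1h4 (-0.23), Nr0b2 (-0.027), Rxra (-0.21 and -0.12), Nr3c1 A_51_P355693 (0.39) and Ahr (-0.025). With alcohol in Cy3 only they were Ppara (0.14), Nr1h3 (0.17) and Nr3c1 A_52_P138090 (-0.25) and A_52_P63106 (0.036). Leaving out 1 month at a time gave ranges that include both signs for 7 probes: Ppara -0.23 to 0.055, Nr1h4 -0.056 to 0.116, Nr0b2 -0.015 to 0.34, Rxra -0.049 to 0.084 (A_52_P188139) and -0.016 to 0.18 (A_51_P307370), Nr3c1 A_51_P355693 -0.19 to 0.029 and Ahr -0.056 to 0.059. The lone sign change of a slope was Rxra A_52_P188139 with normexp and loess (0.0044). The other 177 means kept their sign, and the cause of the changes was not tested.

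List medians, averaged over the months, also moved with the label. With alcohol in Cy5 only and in Cy3 only they were -0.099 and 0.11 for partners, 0.090 and 0.37 for PPARα targets, 0.22 and 0.093 for PPARγ targets, -0.22 and 0.085 for FXR and SHP targets, and -0.066 and 0.20 for Ahr targets. With alcohol in Cy5 only the median was -0.027 for coactivators and -0.16 for LXR targets, and with alcohol in Cy3 only 0.63 for CAR and PXR targets. The 27 other list medians under alternatives moved by less than the SD over months.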
